A study of Caenorhabditis elegans with 80 samples.

Results

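Cytosolic ribosomal protein genes were taken as every probe whose gene symbol starts with rpl- (large subunit) or rps- (small subunit), which gave 68 probes for 68 genes, 39 of the large and 29 of the small subunit, among the 23232 probes of the array. RefSeq lists 78 C. elegans genes with these prefixes, and the genes without a probe under their name were not analysed here. The 68 genes lie on all 6 chromosomes, with 19 on chromosome I, 9 on II, 17 on III, 14 on IV, 7 on V and 2 on X. The rule uses gene names only, and this group of genes was picked for description with earlier results of these data known.

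Each ribosome is built from a large and a small subunit, and each subunit holds one copy of most of its proteins, so cells make the ribosomal proteins in matched amounts. Small-subunit proteins line the path of the mRNA and the decoding site, and large-subunit proteins surround the site where peptide bonds are made and the tunnel through which the new chain leaves. Their mRNAs are among the most abundant in growing larvae, and the need for ribosomes follows growth.

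The samples were recombinant inbred strains of C. elegans whose parents were the strains N2 and CB4856, grown as hermaphrodite populations on OP50 bacteria and collected whole as L3 larvae, a stage before adulthood, after 40 h at 24 °C or 72 h at 16 °C, from 4 dishes per strain and temperature. A total of 80 oligonucleotide arrays with 2 dyes were hybridised, 40 at 24 °C and 40 at 16 °C, each with RNA of one strain labelled with Cy3 and RNA of another labelled with Cy5, and a pair is written here with the Cy3 strain first. The question the pairs address is which differences between strains are kept, and which change, between 24 °C and 16 °C. At 39 pairs the same strains stood on the same dyes at both temperatures.

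Every value below is a deposited log ratio between the 2 strains of an array, read as log2. The files do not say which dye is the numerator or how the ratios were centred, so a sign gives no direction toward a strain or a parent, and a ratio within an array holds no level that could be compared between 24 °C and 16 °C. No pair was hybridised again within a temperature, so the error of a single ratio was not measured and each test rests on the spread between pairs. The strains WN38 and WN80 stood in 2 pairs at each temperature, and WN65 in 2 pairs at 24 °C. Larvae were taken whole, so fewer cells of a type and less RNA per cell cannot be told apart. The median ratio over all probes of an array lay between -0.01 and 0.03 at 24 °C and between -0.02 and 0.04 at 16 °C.

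Ribosomal protein genes varied less between strain pairs than most probes did. The SD of the ratio over 40 arrays had a median of 0.51 over the 68 genes at 24 °C, against 1.11 over all probes, and of 0.51 at 16 °C, against 1.05 over all probes. At 24 °C 67 of the 68 genes were below the all-probe median, with rpl-42 as the exception, and at 16 °C 66 were, with rpl-9 and rps-19 as the exceptions. The 5% of probes with the lowest SD held 51 of the 68 genes at 24 °C and 42 at 16 °C. The median SD was 0.50 for large-subunit and 0.52 for small-subunit genes at 24 °C, and 0.52 for large-subunit and 0.51 for small-subunit genes at 16 °C. The brightness of the spots was not used here, so the part of signal strength in this low spread was not tested.

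With genes ordered by the geometric mean of both SDs, the steadiest gene was rps-2, whose protein sits near the mRNA entry channel of the small subunit. Its ratio ran from -0.68 through a median of 0.01 to 0.64 at 24 °C, and from -1.09 through -0.06 to 1.10 at 16 °C. No array at 24 °C and 2 arrays at 16 °C lay more than 1 log2 unit from 0, and only 0.0129% of all probes had a lower SD at 24 °C. rps-5, a small-subunit protein of the mRNA exit side, had SDs of 0.42 (24 °C) and 0.31 (16 °C), and at 16 °C only 0.0215% of all probes had a lower one. rpl-3, a large-subunit protein next to the peptidyl transferase centre, was never beyond 1 log2 unit and had SDs of 0.33 (24 °C) and 0.41 (16 °C).

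By the same measure the widest gene was rpl-42, the widest at 24 °C though not at 16 °C, where rps-19 and rpl-9 were wider. The ratio of rpl-42 ran from -3.45 through 0.63 to 3.45 at 24 °C, with an SD of 1.32, and from -2.01 through 0.20 to 2.81 at 16 °C, with an SD of 0.995. It was more than 1 log2 unit from 0 on 16 arrays at 24 °C and on 11 at 16 °C. The other 4 of the 5 widest genes were rpl-9 (SD 0.78 at 24 °C, 1.25 at 16 °C), rpl-41.2 (0.97, 0.88), rps-19 (0.55, 1.33) and rps-24 (0.90, 0.76).

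**Figure D1:**
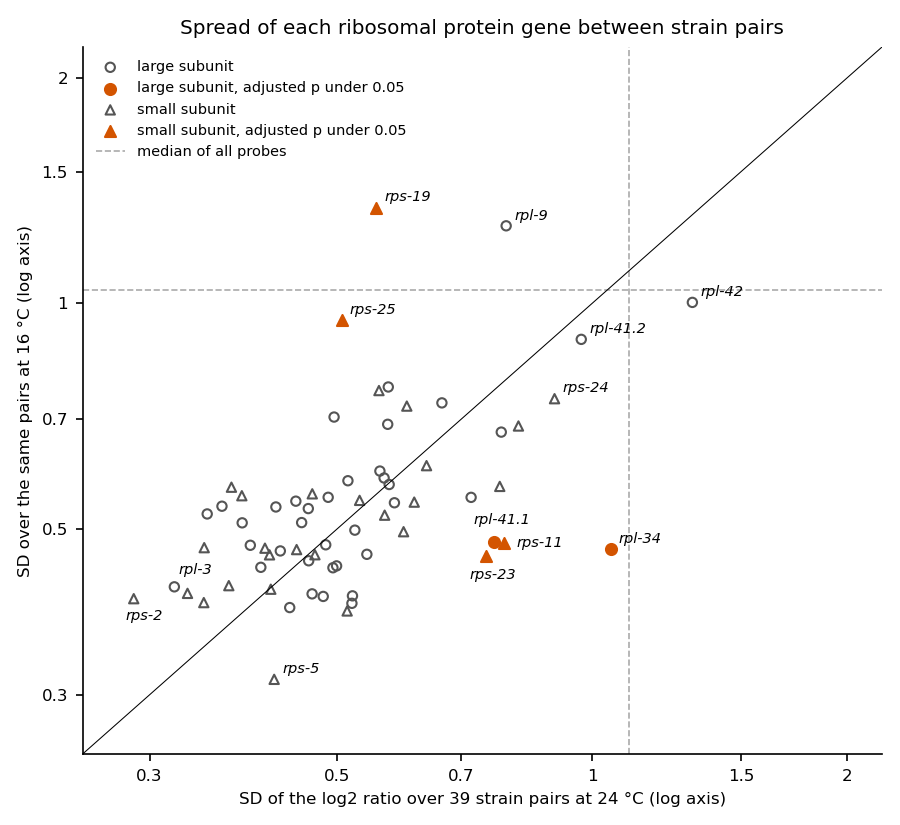
Spread of each of the 68 ribosomal protein genes, as the SD of the log2 ratio over the 39 strain pairs at 24 °C (x) and 16 °C (y), both on log axes; circles are large-subunit and triangles small-subunit genes, filled where the spread differed between the temperatures at an adjusted p under 0.05, the diagonal marks equal spread and dashed lines the median of all probes. Nearly all genes lie below both dashed lines, rpl-34, rpl-41.1, rps-11 and rps-23 lie to the right of the diagonal, and rps-19 and rps-25 above it.

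Whether a strain difference was kept between the temperatures was asked gene by gene, with the Pearson correlation of the ratio at 24 °C with the ratio at 16 °C over the 39 pairs. No ribosomal protein gene passed the threshold (Benjamini-Hochberg adjusted p of 0.05 over all probes) with a positive r, against 1.04% of all probes, and none with a negative r, against 0.0258% of all probes. At an unadjusted p under 0.05 the count was 0 genes positive and 3 negative, against 1377 and 412 of all 23232 probes. The 68 correlations had a median of -0.014 and ran from -0.41 to 0.30, while all probes had a median of 0.032. A positive r was found for 32 of the 68 genes (47.1%), against 57.6% of all probes.

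The gene with the highest r was rpl-41.1 (r = 0.30, unadjusted p = 0.066, adjusted p = 0.709), which codes for the smallest ribosomal protein. It was followed by rps-12 (r = 0.24), rps-27 (r = 0.22), rpl-42 (r = 0.19) and rps-15 (r = 0.17). None of these is distinguishable from 0 at 39 pairs after adjustment.

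The lowest r belonged to rpl-18, a large-subunit protein, at -0.41 (unadjusted p = 0.00889, adjusted p = 0.329). Its ratio ran from -1.03 through 0.10 to 1.90 at 24 °C and from -0.71 through 0.07 to 0.93 at 16 °C. The range at 16 °C lay within the wider range at 24 °C. rpl-23 had r = -0.41 and rpl-13A r = -0.36, with adjusted p of 0.348 and 0.520. rpl-15 and rps-3A followed at -0.29 and -0.27. The rank correlations of the 3 lowest genes were -0.34 for rpl-18, -0.25 for rpl-23 and -0.37 for rpl-13A.

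Within each temperature the ribosomal protein genes moved together from array to array. Over the 2278 pairs of these genes, the median Pearson r across 40 arrays was 0.22 at 24 °C and 0.38 at 16 °C, against -0.00035 over all 269851296 pairs of probes at each temperature. The r was positive for 82.3% of gene pairs at 24 °C and 87.3% at 16 °C, against 49.9% of all probe pairs at each. Other lists co-varied as well, some more strongly, with a median pairwise r of 0.84 at 24 °C and 0.72 at 16 °C for sperm genes, 0.75 and 0.48 for furrow collagens, 0.61 and 0.49 for yolk genes, 0.16 and 0.18 for proteasome subunits and 0.12 and 0.13 for mitochondrial ribosomal proteins. All sperm probes are of msp genes and all yolk probes of vit genes, and binding of related transcripts to such probes was not tested. The sperm (18 probes, 15 genes), yolk (11 probes, 6 genes) and mitochondrial ribosomal (66 probes, 64 genes) lists include pairs of probes of the same gene. The 2278 pairs do not, so these values are not strictly alike. All of them are descriptions, since all genes share the arrays and their RNA. Without the 5 arrays whose ribosomal protein genes were shifted farthest, chosen after the values were seen, the median r was 0.12 at 24 °C and 0.16 at 16 °C. Leaving out the single pair WN54/WN6 gave 0.16 at 24 °C.

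Small-subunit genes followed each other more closely than large-subunit genes did, with a median r of 0.29 against 0.17 at 24 °C and of 0.44 against 0.34 at 16 °C, and pairs of one large and one small gene lay between these, at 0.22 and 0.38. The median r was 0.21 for gene pairs on the same chromosome and 0.22 for pairs on different chromosomes at 24 °C, and 0.37 for the same and 0.38 for different chromosomes at 16 °C. The first principal component of the 68 standardised genes held 26.6% of the variance of these genes at 24 °C and 41.6% at 16 °C.

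**Figure D2:**
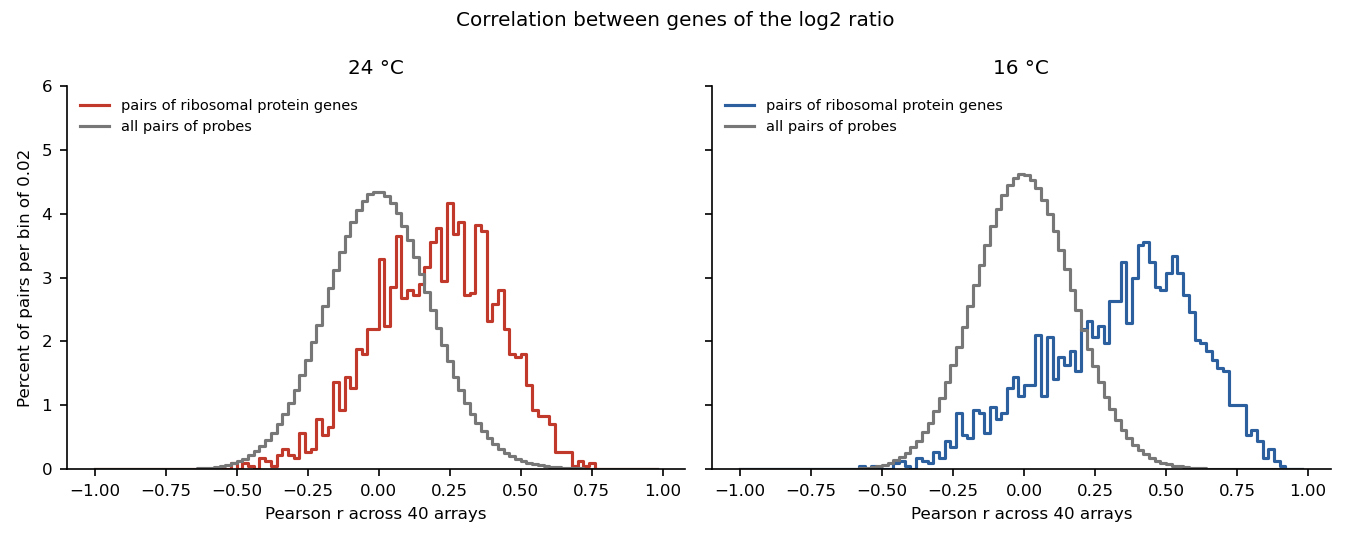
Distribution of the Pearson r between the ratios of gene pairs across 40 arrays at 24 °C (left) and 16 °C (right), in percent of pairs per bin; the coloured line shows 2278 pairs of ribosomal protein genes and the grey line all pairs of probes. The coloured lines are shifted toward positive r, with a median of 0.22 at 24 °C and 0.38 at 16 °C, and the grey lines are centred on 0.

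Each gene was also set against the median ratio of the other 67. This r exceeded 0.5 for 31 of 68 genes (45.6%) at 24 °C and 49 (72.1%) at 16 °C, against 0.259% and 0.449% of the 23164 other probes. The genes that followed the rest most closely were rps-6 at 24 °C (r = 0.81, and 0.74 at 16 °C) and rps-3 at 16 °C (r = 0.90, and 0.68 at 24 °C). rps-6 is the substrate of the S6 kinase and rps-3 lies at the entry of the mRNA channel. rps-12 had an r of 0.76 at 24 °C and 0.85 at 16 °C, and rps-25 of 0.69 and 0.88.

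A few genes did not follow the rest. At 24 °C the r was negative for rpl-41.1 (-0.24), rpl-42 (-0.09), rps-23 (-0.04) and rpl-37A (-0.03). At 16 °C it was negative for rps-24 (-0.24), rpl-42 (-0.12), rpl-37.1 (-0.05), rpl-6 (-0.03) and rpl-41.1 (-0.02). rpl-41.1 and rpl-42 were thus negative at both temperatures, and rps-23, with -0.04 at 24 °C, had 0.45 at 16 °C.

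**Figure D3:**
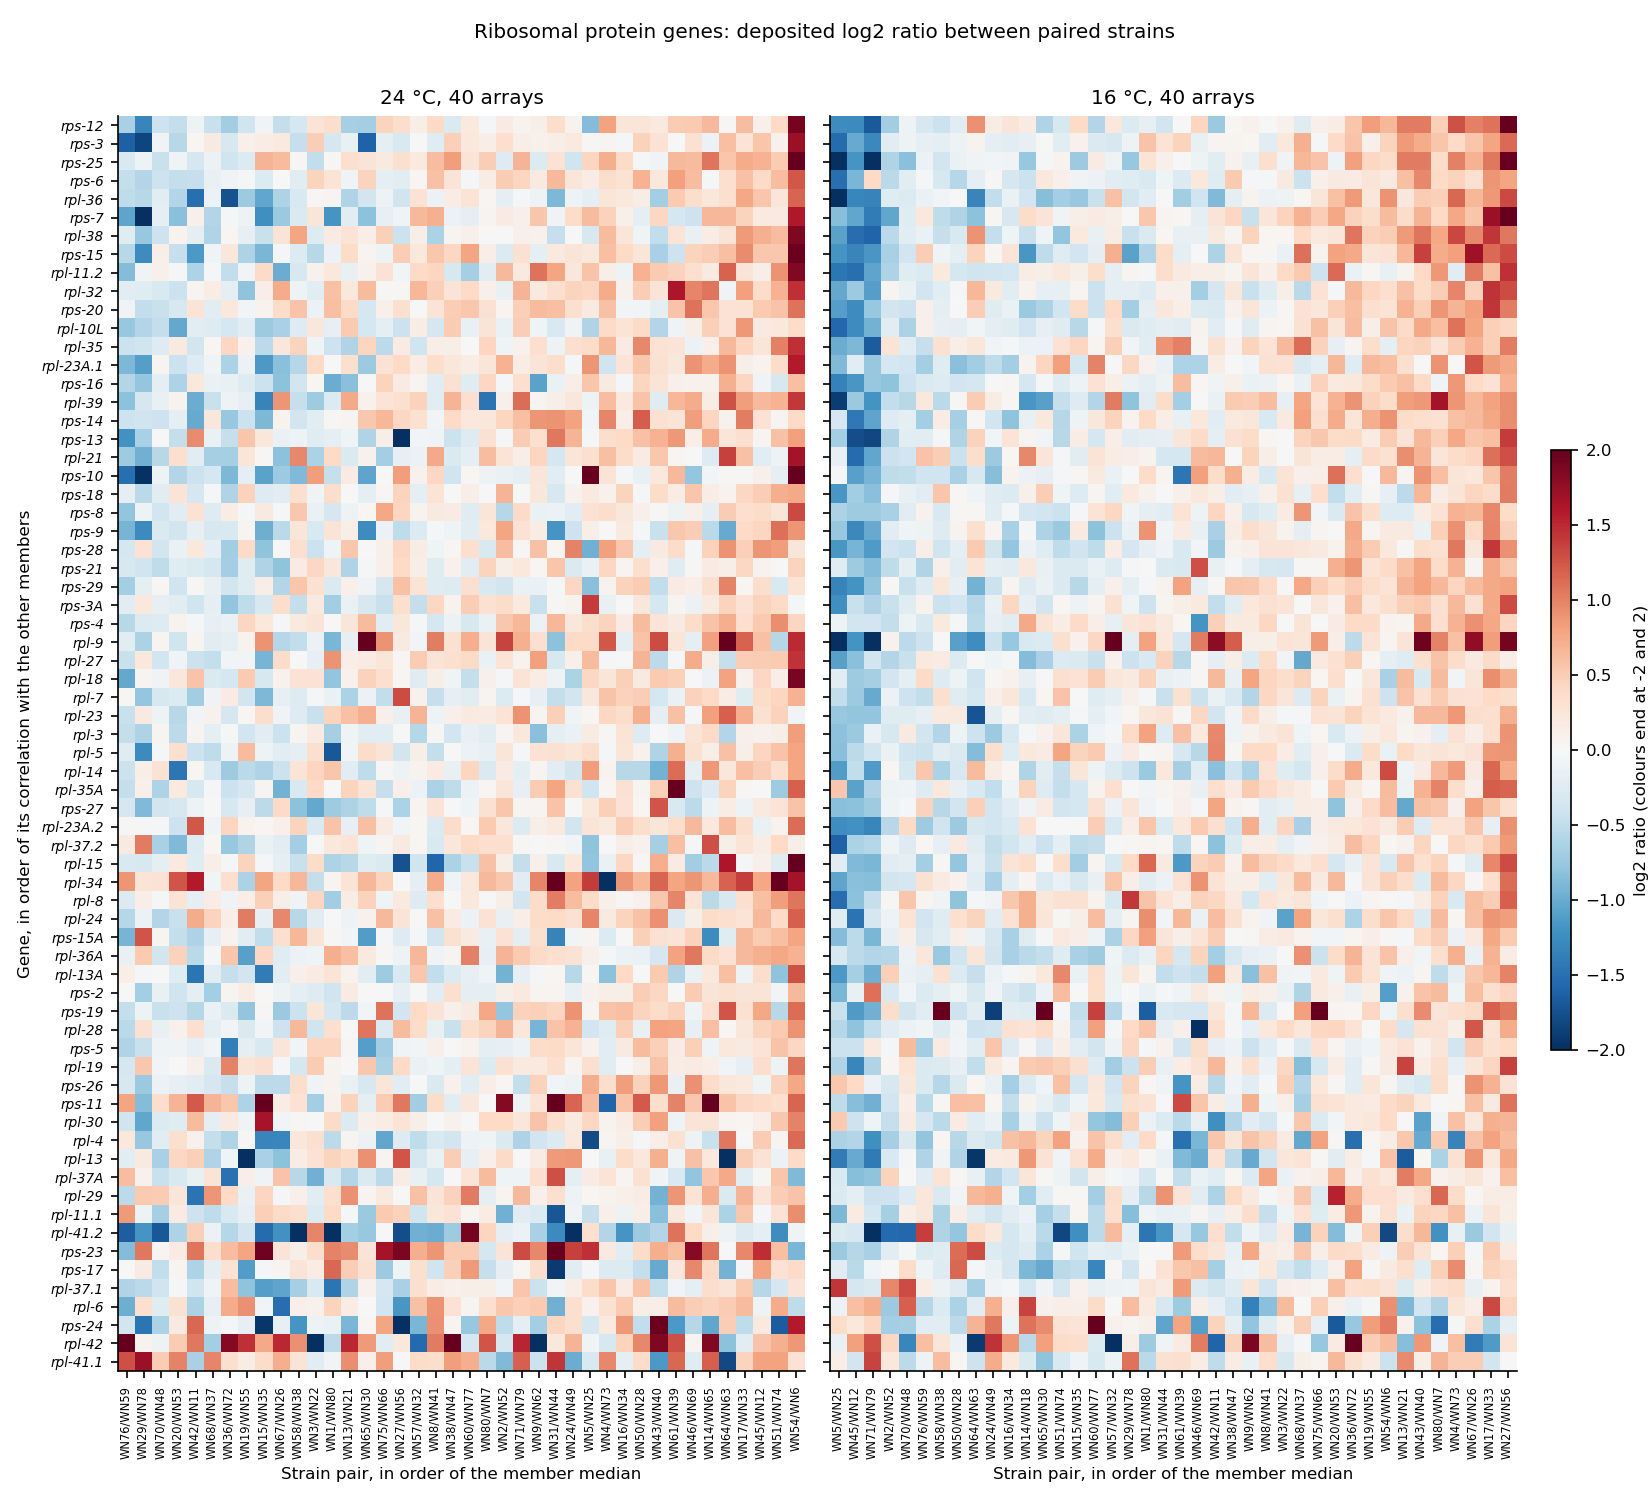
Deposited log2 ratio of the 68 ribosomal protein genes (rows, in order of their correlation with the other genes) in the 40 arrays at 24 °C (left) and the 40 at 16 °C (right), with arrays in order of the median over the 68 genes; red is positive and blue negative. Whole columns share a colour at both ends of each panel, and the bottom rows, among them rpl-41.1 and rpl-42, break the pattern.

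The median ratio over the 68 genes gives the shared shift of an array. At 24 °C it ran from -0.43 through 0.10 to 0.91 with an SD of 0.23, and 28 of 40 arrays were positive. At 16 °C it ran from -0.82 through 0.00 to 0.80 with an SD of 0.34, and 20 of 40 were positive. At least 75% of the genes were positive in 8 arrays at 24 °C and 11 at 16 °C, and at most 25% in 3 arrays at 24 °C and 5 at 16 °C. Only 1 array at 24 °C but 5 at 16 °C had a median beyond 0.5 in size. The medians of the large and small subunits followed each other with r = 0.82 at 24 °C and r = 0.94 at 16 °C over 40 arrays.

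The widest shift at 24 °C was in the pair WN54/WN6, with a median of 0.91, 62 of 68 genes positive and 32 above 1. The largest ratio there was that of rpl-15, 2.57, and the lowest that of rps-23, -0.91. In that array the list medians were 0.94 for intestinal genes, the highest of the arrays at 24 °C, 1.12 for elongation factors and -0.84 for neuronal genes. Furrow collagens were at 0.70 and heat shock genes at -0.54. Cytosolic ribosomal proteins under other symbols were at only 0.14. The part of these lists in the shift was not tested. At 16 °C the same pair had a median of 0.27 with 53 genes positive.

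At 16 °C 3 pairs stood apart on the negative side, WN5/WN25 (-0.82), WN45/WN12 (-0.81) and WN71/WN79 (-0.79). Of the 68 genes, 62, 63 and 61 were below 0 in these arrays, and 26, 24 and 23 were below -1. At 24 °C the medians of the same pairs were 0.17, 0.36 and 0.14, with 48, 59 and 45 genes above 0. In WN45/WN12 60 of the 68 genes had opposite signs at the 2 temperatures.

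On the positive side at 16 °C stood WN27/WN56, with a median of 0.80 and 65 genes above 0, and WN17/WN33, with 0.69 and 63 genes above 0. Muscle genes had their lowest list median of the arrays at 16 °C in WN27/WN56 (-0.74). The TOR and S6 kinase pathway (-0.94) and proteasome subunits (-0.62) were also lowest there. Sperm genes were lowest in WN17/WN33 (-2.38), where yolk genes were at -3.32 and heat shock genes at -2.33. WN17/WN33 kept its sign at 24 °C, with a median of 0.34 and 58 genes above 0. WN27/WN56 had a median of 0.03 and 37 genes above 0 at 24 °C.

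Across the 39 pairs the shift at 24 °C and the shift at 16 °C had r = -0.02 and rank correlation -0.08, and with the 2 pairs of most extreme shift at 24 °C left out r was -0.18. Leaving out 1 pair at a time gave values between -0.12 (without WN54/WN6) and 0.06 (without WN45/WN12). The sign was the same at both temperatures in 18 pairs and opposite in 21. For large-subunit genes r was -0.08 and for small-subunit genes 0.05. The arrays share strains and probes but not RNA samples, and no p is given for a value over many genes.

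**Figure D4:**
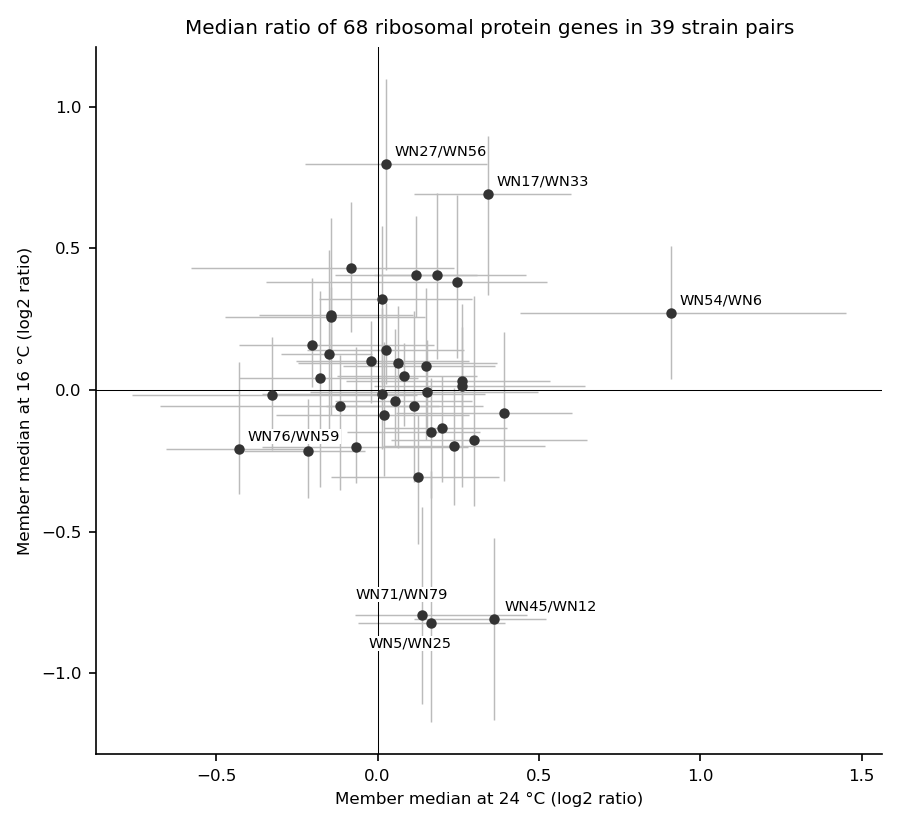
Median log2 ratio of the 68 ribosomal protein genes in each of 39 strain pairs at 24 °C (x) and 16 °C (y); grey bars run from the lower to the upper quartile over the genes. The points form no diagonal (r = -0.02), and WN5/WN25, WN45/WN12 and WN71/WN79 are low at 16 °C with medians above 0 at 24 °C.

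Pairs that share a strain allow a look at the same strain in other company. WN80 stood on Cy5 in WN1/WN80, with a median of 0.01 at 24 °C and -0.01 at 16 °C, and on Cy3 in WN80/WN7, with 0.12 and 0.40. WN38 stood on Cy5 in WN58/WN38, with -0.07 at 24 °C and -0.20 at 16 °C, and on Cy3 in WN38/WN47, with 0.08 and 0.05. WN65 stood on Cy3 in WN65/WN30, with 0.02 at 24 °C and -0.09 at 16 °C, and on Cy5 in WN14/WN65, with 0.29 at 24 °C.

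The spread of each gene between strain pairs at 24 °C was compared with that at 16 °C by the Pitman-Morgan test for paired variances, with Benjamini-Hochberg adjustment over all probes. It was larger at 24 °C for 4 of 68 genes (5.88%), rpl-34, rpl-41.1, rps-11 and rps-23, against 6.12% of all probes, and larger at 16 °C for 2 (2.94%), rps-19 and rps-25, against 3.0% of all probes. Both shares are close to those of all probes. With each array centred and scaled, the split was 1 gene larger at 24 °C (rpl-34) and 6 larger at 16 °C, and over all probes 605 and 1339, where the unscaled ratios gave 1421 and 698. On ranks the same test called none of the 68 genes and no other probe. At an unadjusted p under 0.05 it gave 0 of the 68 genes, and 274 probes wider at 24 °C and 42 wider at 16 °C. These are fewer probes than that p would pass with no difference, so the rank version was strict and its lack of calls says little. The SD ratio of 24 °C over 16 °C had a median of 0.96 over the 68 genes and 1.08 over all probes.

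rpl-34, a large-subunit protein, had the largest SD ratio, 2.24 (adjusted p = 0.000274). Its ratio ran from -3.70 through 0.66 to 3.28 at 24 °C, with an SD of 1.05 over the 39 pairs, and from -1.06 through 0.11 to 1.12 at 16 °C, with an SD of 0.47. At 24 °C the array WN4/WN73 (-3.70) lay far below the next lowest, WN19/WN55 (-0.63), while WN51/WN74 and WN31/WN44 were the highest. Without WN4/WN73 the SD ratio was 1.67 (adjusted p = 0.0349), the value closest to losing the call when 1 pair was left out.

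rps-11 (SD ratio 1.64, adjusted p = 0.0393) and rps-23 (1.63, adjusted p = 0.0423) are small-subunit proteins, and rps-23 lies at the decoding centre. rps-11 ran from -1.59 through 0.44 to 2.56 at 24 °C and from -0.96 through 0.12 to 1.33 at 16 °C. rps-23 ran from -0.91 through 0.67 to 2.64 at 24 °C and from -0.74 through -0.01 to 1.30 at 16 °C. At 24 °C both had their highest ratio in WN31/WN44 and the next highest in WN15/WN35.

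rpl-41.1 (1.60, adjusted p = 0.0443) ran from -1.81 through 0.36 to 1.70 at 24 °C and from -0.80 through 0.12 to 1.35 at 16 °C. The calls of rpl-41.1, rps-11 and rps-23 were lost without any one of 15, 8 and 10 of the 39 pairs. The largest adjusted p were 0.138 for rpl-41.1 (without WN64/WN63), 0.128 for rps-11 and 0.127 for rps-23 (both without WN31/WN44).

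rps-19, the small-subunit protein in which mutations cause Diamond-Blackfan anaemia in humans, had the smallest SD ratio, 0.41 (adjusted p = 7.7e-05). It ran from -0.79 through 0.14 to 1.26 at 24 °C and from -1.86 through -0.02 to 5.37 at 16 °C. At 16 °C the pairs WN75/WN66 (5.37) and WN65/WN30 (4.46) lay far above all others, and WN24/WN49 (-1.86) and WN1/WN80 (-1.65) were the lowest. Without WN75/WN66 the SD ratio was 0.51 (adjusted p = 0.00293), and no single pair ended the call. Leaving out 1 pair at a time always kept WN75/WN66 or WN65/WN30 in.

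rps-25, a small-subunit protein used in initiation on some viral RNAs, had an SD ratio of 0.53 (adjusted p = 0.00697). It ran from -0.49 through 0.27 to 2.11 at 24 °C and from -3.82 through -0.05 to 1.98 at 16 °C. The lowest arrays at 16 °C were WN5/WN25 (-3.82) and WN71/WN79 (-2.25), 2 of the 3 pairs in which the whole group was low. Without WN5/WN25 the SD ratio was 0.71 and the call was lost (adjusted p = 0.188).

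rpl-9, a large-subunit protein, lay just outside the threshold (SD ratio 0.62, adjusted p = 0.0501). It ran from -0.91 through 0.25 to 2.59 at 24 °C and from -4.70 through 0.13 to 2.79 at 16 °C, again with WN5/WN25 (-4.70) and WN71/WN79 (-2.39) lowest at 16 °C. rps-25 and rpl-9 had r = 0.76 with each other at 16 °C and 0.36 at 24 °C. rpl-34 and rps-11 had r = 0.61 at 24 °C and 0.49 at 16 °C, pairs picked after their values were seen.

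**Figure D5:**
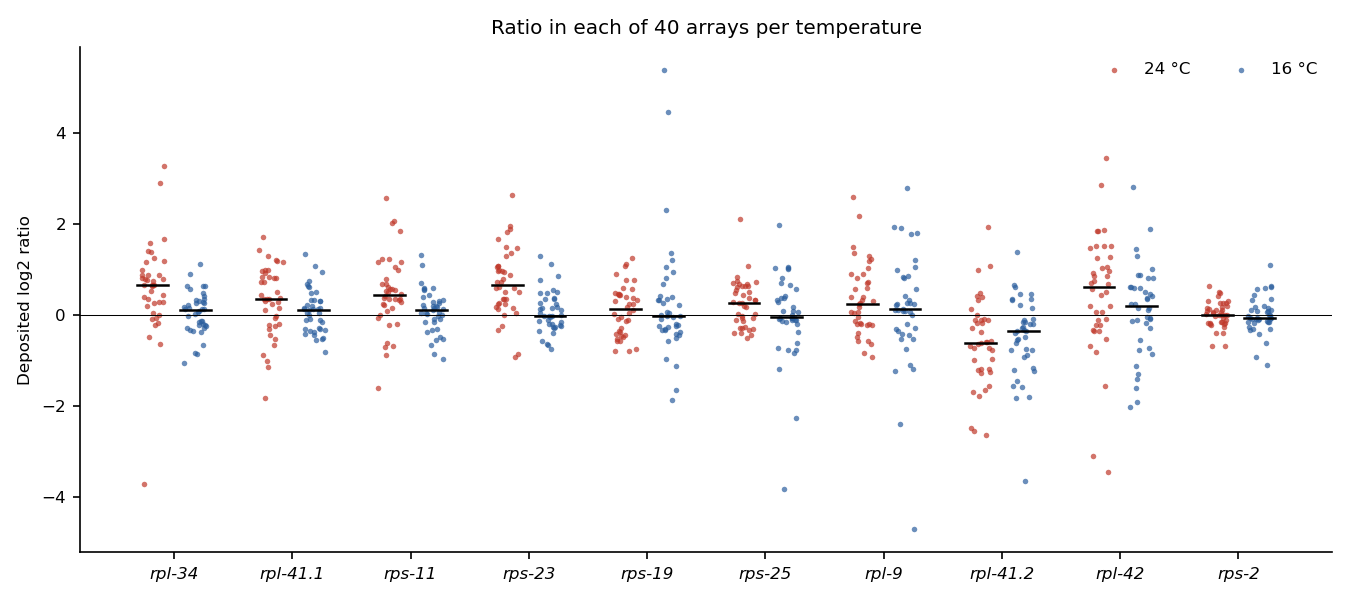
Deposited log2 ratio of 10 ribosomal protein genes in each of 40 arrays at 24 °C (red, left of each pair of columns) and 40 at 16 °C (blue, right), with the median as a black line. rpl-34 is wider at 24 °C, rps-19 at 16 °C, rpl-41.2 lies mostly below 0 at both temperatures, and rps-2 stays near 0.

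The mean ratio of each gene over all arrays of a temperature was also compared with 0. Each pair was hybridised with its dyes one way round, so contributions of dye, probe and strain to this mean cannot be told apart. By limma's moderated test, 7 of 68 genes (10.3%) had a mean above 0 at 24 °C, rpl-24, rpl-32, rpl-34, rps-11, rps-20, rps-23 and rps-25, against 7.88% of all probes, and 1 (1.47%) a mean below 0, rpl-41.2, against 6.5%. The count above 0 was 3 without the arrays of recurring strains and 15 by Wilcoxon's signed rank test. The share of all probes above 0 was not counted under these alternatives, so neither count can be read as particular to the group. At 16 °C no gene had a mean above 0, against 2.45% of all probes, and rpl-41.2 alone (1.47%) a mean below 0, against 2.7%. The largest means at 24 °C were those of rps-23, 0.71 ± 0.12 (standard error, n = 40, limma adjusted p = 6.0e-05), and of rpl-34, 0.60 ± 0.16 (n = 40, limma adjusted p = 0.00948).

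rpl-41.2 was the gene with a mean away from 0 at both temperatures, -0.60 ± 0.15 at 24 °C (standard error, n = 40, limma adjusted p = 0.00595) and -0.49 ± 0.14 at 16 °C (n = 40, limma adjusted p = 0.0305). Its ratio ran from -2.63 through -0.60 to 1.92 at 24 °C and from -3.64 through -0.34 to 1.38 at 16 °C. Its call at 16 °C was lost without the arrays of recurring strains. rps-11, rps-23 and rpl-34 combined a mean above 0 with the larger spread at 24 °C.

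In 4 cases, told by symbols that differ only after a dot, a ribosomal protein has 2 genes on the array, and the copies did not always move together. The copies of rpl-23A, whose protein lies at the mouth of the exit tunnel, had r = 0.25 at 24 °C and 0.57 at 16 °C (rpl-23A.1 on X, rpl-23A.2 on I). The copies of rpl-11, whose protein binds 5S rRNA, had r = -0.16 at 24 °C and 0.25 at 16 °C (rpl-11.1 on V, rpl-11.2 on X). rpl-11.2 followed the median of the other genes with r = 0.68 at 24 °C and 0.80 at 16 °C, and rpl-11.1 with 0.07 and 0.46.

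The copies of rpl-37 had r = 0.06 at 24 °C and -0.11 at 16 °C, and at 16 °C rpl-37.2 followed the group (r = 0.76) while rpl-37.1 did not (r = -0.05). The copies of rpl-41, both on chromosome I, had r = -0.02 at 24 °C and -0.16 at 16 °C. Probes of near-identical copies may bind each other's transcripts, so a shared signal between copies is uncertain. Genes that share only a number, such as rps-3 and rps-3A, are different proteins. Such pairs had r from -0.03 (rpl-37.1 and rpl-37A) to 0.40 (rpl-36 and rpl-36A) at 24 °C, where the next lowest was 0.03 (rpl-13 and rpl-13A). At 16 °C they ran from 0.05 (rpl-37.1 and rpl-37A) to 0.72 (rps-3 and rps-3A).

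Other genes of translation were compared with the group through the median ratio of each list over 40 arrays, as a description. Cytosolic ribosomal proteins under other symbols (6 probes) followed it with r = 0.44 at 24 °C and 0.52 at 16 °C, and elongation factors (5 probes) with 0.46, or 0.29 without WN54/WN6, at 24 °C and 0.50 at 16 °C. Mitochondrial ribosomal proteins (66 probes) had r = -0.00 at 24 °C and 0.11 at 16 °C. Initiation factors had 0.07 and 0.03, aminoacyl-tRNA synthetases -0.10 and -0.18, genes of ribosome biogenesis and RNA polymerase I -0.06 and 0.03, and the TOR and S6 kinase pathway 0.01 and -0.22. Proteasome subunits (32 probes) had -0.13 at 24 °C and -0.36 at 16 °C. Without WN27/WN56 the values at 16 °C were -0.24 for proteasome subunits and -0.10 for the TOR and S6 kinase pathway.

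Within these lists, ubq-2, a fusion of ubiquitin with a ribosomal protein of the large subunit, had r = 0.62 at 24 °C and 0.82 at 16 °C with the group median. eef-1A.1, the elongation factor that brings aminoacyl-tRNA to the ribosome, had 0.56 and 0.74. Among the other elongation factors eef-2 (0.36 and 0.48) and eef-1A.2 (0.58 and 0.25) were positive. eef-1B.1 (-0.19 and -0.07) and eef-1B.2 (-0.08 and -0.27) were negative at both temperatures. The median pairwise r within the elongation factor list was 0.06 at 24 °C and 0.08 at 16 °C. rplp-0, the base of the ribosomal stalk, had -0.10 and -0.16. rack-1, a protein bound to the small subunit, had 0.62 at 24 °C and 0.24 at 16 °C.

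Among all genes outside the group, those most like it at both temperatures were xtr-2 (r = 0.81 at 24 °C and 0.74 at 16 °C), ubq-2, chil-5 (0.62 and 0.58), eef-1A.1 and tmed-13 (0.55 and 0.58), ranked by the smaller r over 40 arrays at each temperature. The ratio of xtr-2 lay between -3.66 and 2.44 at 24 °C and between -5.60 and 2.69 at 16 °C, and its SDs, 1.55 (24 °C) and 1.86 (16 °C), exceeded that of every ribosomal protein gene. Most opposed were pas-7, a proteasome subunit (-0.50 and -0.60), nex-1, an annexin (-0.64 and -0.50), F13B12.6 (-0.50 and -0.49), ipgm-1, a phosphoglycerate mutase of glycolysis (-0.62 and -0.49), and rbr-2, a histone demethylase (-0.49 and -0.60). Named after their values were seen, rpsa-1, a small-subunit protein outside the naming rule, had 0.42 and 0.76, and fau-1, a fusion that carries a small-subunit protein, had 0.50 and 0.67.

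Markers of stage and tissue were read beside the shift, because larvae of a pair may differ in stage. At 24 °C the pair with the lowest group median, WN76/WN59 (-0.43), had the highest list medians of sperm genes (4.93), germline genes (1.44) and yolk genes (4.05) of all arrays at that temperature. The r of the sperm list with the group median was -0.32 at 24 °C and -0.08 at 16 °C, and at 24 °C -0.09 without that pair. Without WN76/WN59 the median r among ribosomal protein genes at 24 °C was 0.20.

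Muscle genes (4 probes) had r = -0.11 with the group median at 24 °C and -0.50 at 16 °C, and neuronal genes (5 probes) -0.12 and -0.35. Of the muscle genes at 24 °C, tnt-2 and unc-54 were each at 0.06, myo-3 at -0.23 and unc-15 at -0.39. At 16 °C unc-54 was again at 0.06, and tnt-2 (-0.65), unc-15 (-0.54) and myo-3 (-0.25) were negative. Without WN27/WN56 the r of the muscle list at 16 °C was -0.44. Intestinal genes (5 probes) had r = 0.48 at 24 °C, or 0.31 without WN54/WN6, and 0.21 at 16 °C. Their median pairwise r with each other was only 0.07 at 24 °C and 0.10 at 16 °C. Singly, all 5 were positive at 24 °C, from 0.06 (elt-2) to 0.59 (elt-7). At 16 °C 3 were positive, and ges-1 (-0.26) and cpr-1 (-0.19) were negative. Furrow collagens, which peak once per moult, had 0.27 at 24 °C and -0.15 at 16 °C, germline genes -0.21 and -0.01, yolk genes -0.24 and -0.14, and heat shock genes 0.04 and -0.11. Without WN76/WN59 the values at 24 °C were -0.11 for germline and -0.14 for yolk genes, -0.06 for muscle and -0.20 for neuronal genes, and without WN54/WN6 they were -0.05 for muscle and -0.02 for neuronal genes. In the 3 pairs with the low shift at 16 °C, muscle list medians were 0.60 (WN5/WN25), 1.12 (WN45/WN12) and 0.36 (WN71/WN79). In the same order, elongation factor medians were 0.08, -0.51 and -0.74. Cytosolic ribosomal proteins under other symbols were at 0.32, -0.35 and -0.26, so above 0 in WN5/WN25, the lowest array. Heat shock genes were at -0.77, 1.12 and 2.01, yolk genes at -0.02, 0.48 and 2.04, and furrow collagens at 0.36, 0.07 and 0.83. Germline genes were at -0.03, 0.77 and 0.01, and neuronal genes at 0.80, 0.27 and -0.09. The part of stage or tissue makeup in the shared shift was not tested.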

How the data were processed

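The deposited values are log2 ratios, 1 per probe and array, an assumed base, since limma, named in the submitters' processing notes, works on that scale. The authors hybridised 60-base oligonucleotide arrays and normalized the ratios before deposit. Version, dye direction and centring were not given in the sources used here. All 80 columns were mapped to arrays by their labels, and values had no gaps. Probes were named through the platform annotation and updated through RefSeq (17447 probes with 1 gene name, 17358 of them matched). Scanner signals were not used here, and the precision is set by the spread between pairs and the number of arrays.

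Pairs were matched by the strains on each dye (39 pairs, 78 arrays). Pearson r and the Pitman-Morgan test were computed per probe over these pairs and limma's intercept (lmFit, eBayes) over 40 arrays per temperature, each with Benjamini-Hochberg adjustment over all 23232 probes at 0.05. The scripts were tested on simulated data. The members and lists were chosen with earlier results of these data known. Genes were named if past the threshold of the correlation or spread test, among the 5 highest or 5 lowest r, the 5 widest or 3 steadiest, the 3 largest mean ratios past the threshold per temperature, copies of one protein, or the 5 most alike and 5 most opposed genes outside the group. Gene lists hold only genes with a matching current symbol. Alternatives were array scaling, removal of 2 principal components, ranks, a threshold of 0.01, division by the median SD, Wilcoxon's signed rank test, and leaving out pairs. Python 3.11.15, numpy 2.4.6, scipy 1.17.1, pandas 2.3.3, R 4.3.3 and limma 3.58.1 were used.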

Additional observations from a re-analysis of the deposited data

Results flagged for a closer look

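For 6 ribosomal protein genes the spread between strain pairs differed between 24 °C and 16 °C by the Pitman-Morgan test. It was larger at 24 °C for 4 of 68 (5.88%, against 6.12% of all probes) and at 16 °C for 2 (2.94%, against 3.0%). Both shares are close to those of all probes. The SD at 24 °C over that at 16 °C was 2.24 for rpl-34, 1.64 for rps-11, 1.63 for rps-23 and 1.60 for rpl-41.1. It was 0.41 for rps-19 and 0.53 for rps-25. Only rpl-34 and rps-19 kept the call with each of the 39 pairs left out in turn. For rps-19 at 16 °C the pairs WN75/WN66 (5.37) and WN65/WN30 (4.46) lay far above all others. Leaving out 1 pair at a time always kept WN75/WN66 or WN65/WN30 in. On ranks the SD ratios were 1.22 for rpl-34 and 0.94 for rps-19, and neither gene was called.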

How the results depend on the processing

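No ribosomal protein gene had a correlation between temperatures past the threshold under any alternative run, including each of the 39 pairs left out. Over all probes the positive calls, 242, were 134 with 2 principal components removed and 152 at a threshold of 0.01, where negative calls were 2 instead of 6. The count of genes with the larger spread at 24 °C, 4, was 1 with scaled arrays, with each temperature divided by its median SD, or at a threshold of 0.01, 2 without pairs of recurring strains, and between 1 and 4 with 1 pair left out. The count with the larger spread at 16 °C, 2, was 6 with scaled arrays or without WN54/WN6, and between 1 and 6 with 1 pair left out. Over all probes the calls of 1421 and 698 became 605 and 1339 with scaled arrays, 572 and 311 at 0.01, and 850 at 24 °C with each temperature divided by its median SD. Ranks gave 0 calls in either direction, for the ribosomal protein genes and for all probes. At an unadjusted p under 0.05 they gave 0 of these genes and 274 and 42 of all probes. That is fewer than this p would pass with no difference, so the lack of calls on ranks says little. No call of the 6 genes changed direction. For the mean ratio a threshold of 0.01 gave 1544 probes at 24 °C and 601 at 16 °C, where 0.05 gave 3341 and 1197. Genes above 0 at 24 °C, 7, were 3 at 0.01 or without recurring strains and 15 by Wilcoxon's signed rank test. The share of all probes above 0 was not counted under these alternatives. rpl-41.2 at 16 °C was not called at 0.01 or without recurring strains, a count of 0. The median r among the genes was 0.12 at 24 °C and 0.16 at 16 °C without the 5 arrays of widest shift, and 0.16 to 0.22 and 0.33 to 0.39 with 1 array left out. The correlation of the shift between temperatures ran from -0.12 to 0.06 with 1 pair left out. The cause of these changes was not tested. Pairs left out one at a time and the arrays of widest shift were chosen after seeing the data. Each gene has 1 probe with 1 name, so the alternatives on these points were not run. The tests between temperatures are paired by strain pair, and the replicate numbers of the labels, which differ between the temperatures, were not used to pair arrays.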
